A study of Caenorhabditis elegans with 2 samples.

Results

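The mitochondrial ribosomal protein genes of Caenorhabditis elegans were examined as targets of the transcription factor LET-607 in young adult worms. They were taken as the protein-coding genes whose names begin with mrpl- (large subunit) or mrps- (small subunit) followed by a digit in the Ensembl annotation of the WBcel235 assembly. This gave 70 genes, 41 named for the large and 29 for the small subunit, among 19973 nuclear protein-coding genes. The subunit was read from the name alone, and mrps-18.C and mrps-18C are both counted. A gene was called bound when a region of the authors' thresholded list had its summit near an annotated start of that gene, no more than 1000 bp upstream of it and no more than 200 bp downstream. A gene was said to have a candidate region when a summit of the longer, pooled list lay in that window. By its label that list holds peaks and background together, so a candidate region is not by itself evidence of binding.

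LET-607 binding was mapped by chromatin immunoprecipitation followed by sequencing (ChIP-seq) in a single group of 2 biological replicates. The strain, YL651, carries let-607(tm1423) and, on chromosome III, unc-119(ed3). Its integrated transgene vrIs121 is a LET-607 fosmid with a C-terminal GFP-FLAG tag, joined to unc-119(+), and chromatin was precipitated with an antibody to GFP. Whole worms of both sexes, pooled, were collected as young adults with a labelled age of 49.5 hours, after synchronisation by bleaching and starvation of first-stage larvae, and sonication gave fragments of 200 to 800 bp. All worms were of this integrated line and the precipitate came from the whole animal, so binding in a subset of tissues cannot be told apart from weak binding in all, and with no second condition the values below are descriptions.

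The mitochondrial ribosome translates the few messenger RNAs made from mitochondrial DNA, which in animals encode membrane subunits of the respiratory chain and the ATP synthase. Its RNAs are made inside the organelle, but its proteins are encoded in the nucleus, made on cytosolic ribosomes and imported, so their supply depends on nuclear transcription. LET-607 is a basic leucine zipper factor related to mammalian CREB3 proteins, which sit in the membrane of the endoplasmic reticulum and are best known for controlling genes of the secretory pathway.

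Few mitochondrial ribosomal protein genes lay near a thresholded LET-607 summit. Most had a candidate region, from a list that also holds background. A candidate region was present at 45 of the 70 genes (64.3%), against 7766 of 19973 protein-coding genes (38.9%). Of these 45, mrps-21 and mrpl-23 were bound, which is 2 of 45 or 4.44% (95% Wilson interval 1.23 to 14.8), against 958 of 7766 genes with a candidate region (12.3%, interval 11.6 to 13.1). Over all annotated genes the bound share was 2.86% for the mitochondrial ribosomal genes and 4.8% for all protein-coding genes. The interval around the members' share contains the background share, and it covers counting error only. The large subunit had 1 bound gene of 25 with a candidate region (4%, interval 0.71 to 19.5) and the small subunit 1 of 20 (5%, interval 0.89 to 23.6). No member is on the X chromosome, and the autosomal background was 779 bound genes of 6562 (11.9%).

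Neither bound gene had its summit close to its own start. At mrps-21, which encodes a small-subunit protein, the summit lay 965 bp upstream of the annotated start, and the start of the same-strand neighbour F29B9.11 was nearer. The next mitochondrial ribosomal genes in order of signal were just below the list: mrpl-12, whose product in other organisms forms the stalk that contacts translation factors, then mrpl-45, whose mammalian counterpart lies at the exit of the nascent chain tunnel, and mrpl-28. The 101 bp centred on the summit are shown for mrps-21, for these 3 genes, and for mrps-7 and mrpl-32. Of these, mrps-7 and mrpl-32 were picked because they hold further motifs named here. Left out are mrpl-39, with none of the motifs searched, and mrps-12, with ACGT, though both had stronger signals than mrpl-32. Each printed window runs 5′ to 3′ on the strand of the gene, from the RefSeq sequence of WBcel235 (ce11), and none overlaps an annotated exon. Capitals mark ACGT and TGACG or its complement CGTCA at mrps-21, TGATAA as its complement TTATCA and GCAAACAC at mrpl-45, GCAAACAC at mrpl-28, AGACGCAG at mrps-7, and GCAAACAC and CGTCA at mrpl-32; the mrpl-12 window holds none of the motifs searched.
mrps-21 (chrIV:4660432-4660532, - strand): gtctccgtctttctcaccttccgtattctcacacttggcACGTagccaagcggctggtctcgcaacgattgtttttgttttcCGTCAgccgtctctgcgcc
mrpl-12 (chrIII:10707197-10707297, + strand): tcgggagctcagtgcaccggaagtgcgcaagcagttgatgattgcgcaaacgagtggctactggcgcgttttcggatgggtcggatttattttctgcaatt
mrpl-45 (chrIII:1202343-1202443, - strand): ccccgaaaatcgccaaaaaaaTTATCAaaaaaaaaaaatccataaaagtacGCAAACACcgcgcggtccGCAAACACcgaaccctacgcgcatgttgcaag
mrpl-28 (chrII:156056-156156, - strand): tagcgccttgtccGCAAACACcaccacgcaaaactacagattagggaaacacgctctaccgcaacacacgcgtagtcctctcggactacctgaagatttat
mrps-7 (chrIV:14767839-14767939, - strand): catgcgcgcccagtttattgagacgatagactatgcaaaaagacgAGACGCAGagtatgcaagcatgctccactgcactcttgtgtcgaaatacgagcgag
mrpl-32 (chrIII:8449367-8449467, + strand): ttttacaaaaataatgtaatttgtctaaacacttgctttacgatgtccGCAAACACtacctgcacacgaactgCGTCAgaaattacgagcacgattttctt

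The region at mrps-21 spanned positions 4660280 to 4660683 of chromosome IV, with its summit at 4660482 between genes. Its signal, the authors' own value for the strength of a region, was 162 in the pooled list, where it ranked 703. The matched region had a signal of 71.7 in replicate 1, at rank 869, and 94.4 in replicate 2, at rank 641. Each list has its own scale, so ranks are the better guide across lists, and in both replicates the region was within the 1488 strongest, the number of regions in the thresholded list. The summit of the replicate 1 region lay 1005 bp upstream of the mrps-21 start, just outside the window, and that of replicate 2 lay 943 bp upstream. With replicate 2 left out, mrps-21 was therefore not called bound. At mrpl-23 the matched summits were 992 bp upstream in replicate 1 and 978 bp upstream in replicate 2, both inside the window.

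A total of 3 protein-coding genes share the mrps-21 summit in their windows. The nearest start is that of F29B9.11 (WBGene00017925), 281 bp from the summit. On the other side, jmjd-1.2 (WBGene00017920), a histone demethylase gene, starts 509 bp from it and runs in the opposite direction. F29B9.11 ends 113 bp before mrps-21 (WBGene00017924) begins on the same strand. When each summit counted for the nearest start alone, mrps-21 was no longer called bound.

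The mrpl-23 gene (WBGene00020348), at positions 6211270 to 6211885 of chromosome I, encodes a large-subunit protein. Its region spanned 6212661 to 6213064, with a pooled signal of 155 at rank 782. The matched region had a signal of 89.3 in replicate 1, at rank 537, and 62.9 in replicate 2, at rank 1481. In replicate 2 it was therefore close to the end of the 1488 strongest regions.

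The mrpl-23 summit, at 6212863, lay 978 bp upstream of the gene's start and inside an intron of fars-1 (WBGene00001497), which encodes a cytosolic phenylalanyl-tRNA synthetase subunit. The fars-1 gene ends 95 bp upstream of mrpl-23 on the same strand, and its own start is 1822 bp from the summit, outside the window. No other protein-coding gene had this summit in its window. The summit also lay inside T08B2.t1, annotated by RefSeq as a tRNA pseudogene of 72 bp, and inside the 221 bp noncoding RNA gene T08B2.14 on the other strand. A 129 bp small nucleolar RNA gene, T08B2.13, starts 39 bp away. Leaving out regions within 500 bp of a tRNA gene or tRNA pseudogene was a setting chosen after seeing the data. In it, mrpl-23 was no longer called bound. When regions near tRNA genes alone were left out, mrpl-23 stayed bound. The part of the small RNA genes in this signal was not tested.

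**Figure D1:**
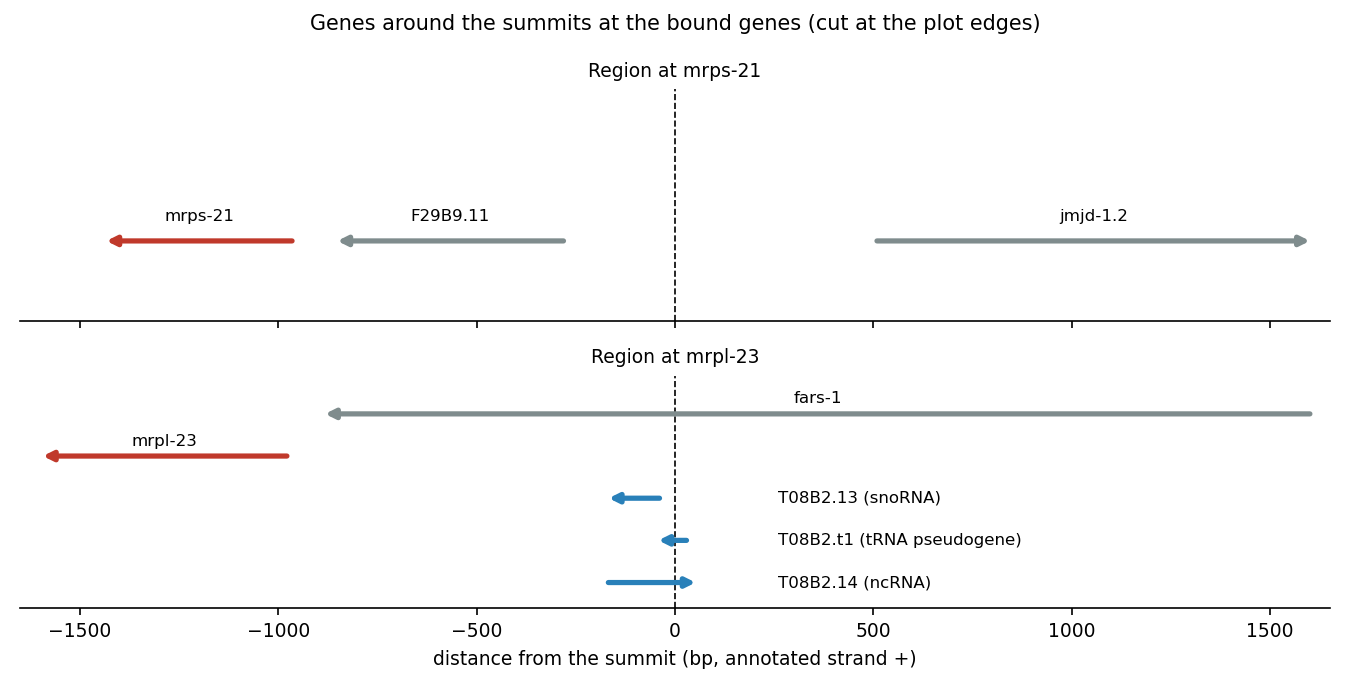
Annotated genes around the summits called for mrps-21 (upper panel) and mrpl-23 (lower panel), by distance from the summit in bp along the annotated + strand; arrows point in the direction of transcription, red marks the mitochondrial ribosomal gene, grey other protein-coding genes and blue small RNA genes or pseudogenes. The mrps-21 summit lies between F29B9.11 and jmjd-1.2, and the mrpl-23 summit inside fars-1, with genes cut at the plot edges.

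Both bound genes follow a close neighbour on the same strand. In C. elegans many such neighbours form operons, in which a single promoter upstream of the first gene serves all of them and the annotated start of a later gene is a trans-splice site. Of the 70 mitochondrial ribosomal genes, 29 (41.4%) had a same-strand protein-coding gene that ended within 500 bp upstream of, or overlapped, their start, against 4025 of 19973 protein-coding genes (20.2%). Among genes with a candidate region the figures were 18 of 45 (40.0%) and 1787 of 7766 (23.0%). The 2 bound members were among these 18, and 0 of the 27 members without such a neighbour were bound, which allows a share of up to 12.5% (Wilson). Among all genes with a candidate region, 147 of 1787 with such a neighbour were bound (8.23%), against 811 of 5979 without (13.6%). Whether these neighbours share transcripts was not tested.

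Several neighbours are named here as examples, chosen after their values were seen. The large-subunit gene mrpl-4 begins 105 bp after mrps-2 on the same strand. A candidate region with a signal of 58.7 was found at mrps-2, and none at mrpl-4. The small-subunit gene mrps-22 begins 105 bp after dap-3, whose mammalian counterpart is also a small-subunit protein, and had a signal of 36.1. That region ranked 24831 of the 30000 pooled regions and had no match in replicate 1. The divergent pair mrpl-1 and mrps-24, with starts 344 bp apart, had no candidate region. The gene mrpl-49 starts 519 bp from the cytosolic ribosomal gene rpl-28, running the other way. They shared a region with a signal of 62.6, which had no match in replicate 2. Similarly, mrps-15 starts 324 bp from asg-1, an ATP synthase subunit gene, and they shared a region with a signal of 39.9. A divergent protein-coding start within 1000 bp was present at 28 of the 70 members and at 19 of the 45 with a candidate region. No share over all protein-coding genes is given for this, so it is not read as a trait of the family.

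The threshold fell between 2 members and the next 3. The lowest thresholded signal and the strongest one left out both rounded to 111. At mrpl-12 the pooled signal was 109 (rank 1544), with 49.9 in replicate 1 (rank 2104) and 61.3 in replicate 2 (rank 1573). Its summit lay 514 bp upstream, nearer to the divergent gene Y39A1A.22 at 219 bp. At mrpl-45 the pooled signal was 108 (rank 1579), with 61.7 in replicate 1 (rank 1219) and 51.7 in replicate 2 (rank 2258). That summit was 385 bp upstream of mrpl-45 and 153 bp from the divergent gene Y119D3B.12. Both replicates thus placed mrpl-12 outside their 1488 strongest regions, while mrpl-45 was inside them in replicate 1 and outside in replicate 2.

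Among the members just outside the list, mrpl-28 had the summit closest to its own start, 97 bp upstream, and no other gene shared it. Its pooled signal was 103 (rank 1734), but the replicates differed widely, at 68.6 in replicate 1 (rank 946) and 28.1 in replicate 2 (rank 12619). The call for mrpl-28 therefore depends on the replicate: it is among the 1488 strongest regions in replicate 1 and far below them in replicate 2.

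The other 7 of the 10 strongest unbound members had pooled signals of 67.1 to 92.7. The mrpl-50 summit (92.7, rank 2206) lay 68 bp inside the gene, in a coding exon, and mrpl-50 begins 25 bp after cct-2, a subunit gene of the cytosolic chaperonin. The signal at mrps-7, which encodes a protein of the head of the small subunit, was 86.1 (rank 2629), with 39.0 in replicate 1 and 50.8 in replicate 2, 159 bp upstream of the start. It was 85.2 at mrpl-39 (rank 2689), 70 bp upstream and shared with the divergent gene gly-7, a glycosyltransferase gene.

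At mrps-12, whose product belongs to the decoding centre of the small subunit, the signal was 83.2 (rank 2837), with 33.9 in replicate 1 and 51.8 in replicate 2. At mrpl-32, whose yeast counterpart is matured by a mitochondrial inner-membrane protease, it was 77.5 (rank 3382), with 48.3 in replicate 1 and 46.2 in replicate 2. The mrpl-41 region (72.9, rank 3975) had no match in replicate 1 and a signal of 48.7 in replicate 2. At mrps-35 the region (67.1, rank 4946) was shared with the divergent gene sws-1, with a start 156 bp from that of mrps-35, and had 31.0 in replicate 1 and 30.8 in replicate 2. None of these 7 had a rank within the first 1488 in either replicate.

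**Figure D2:**
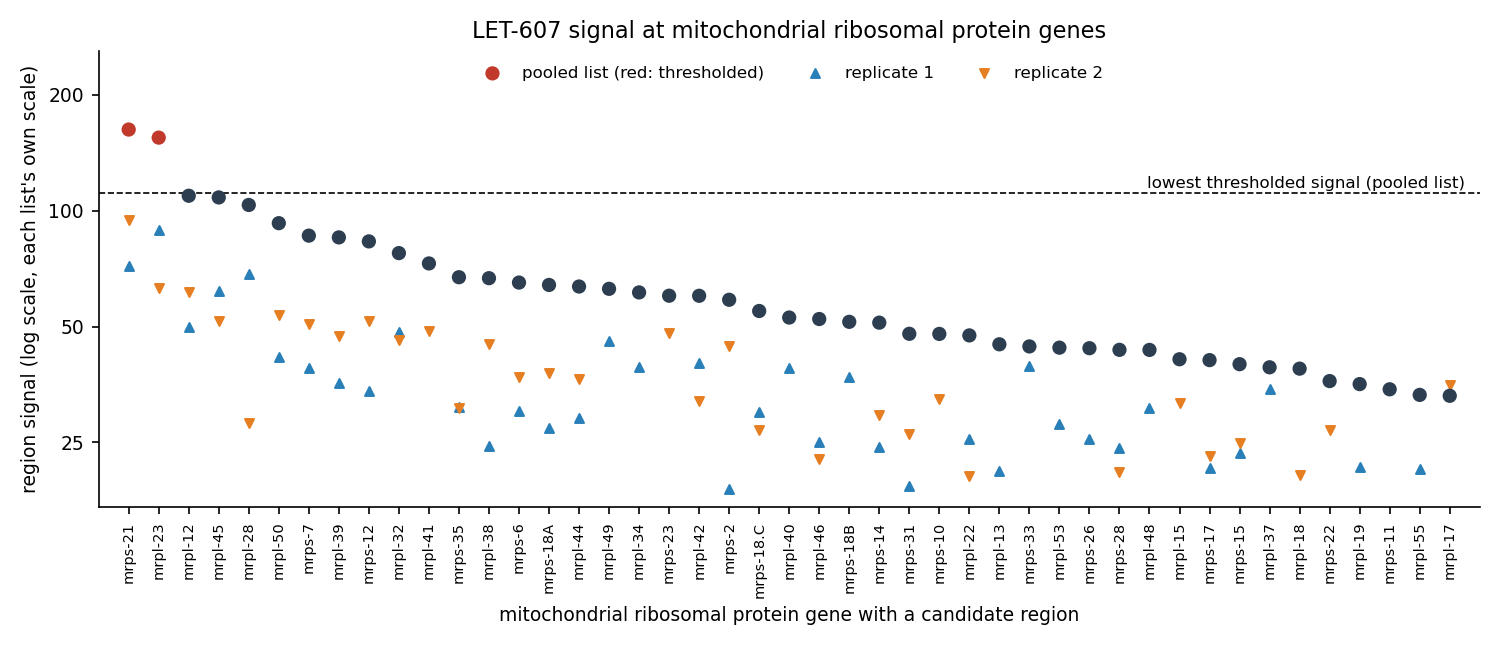
Signal of the strongest region in the window of each of the 45 mitochondrial ribosomal genes with a candidate region, on a log scale, for the pooled list (circles, red where thresholded) and for the matched region of each replicate (triangles), every list on its own scale. Only mrps-21 and mrpl-23 stand above the dashed line, the lowest thresholded signal of the pooled list, and a missing triangle means that no region of that replicate matched.

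Over all candidate regions, the members' median signal was close to that of all genes. The median signal of the strongest region was 52.8 for the 45 members (quartiles 43.5 and 67.1), against 52.0 for the 7766 genes (quartiles 40.5 and 74.6). The median was 60.1 for the large subunit and 51.3 for the small subunit. Split at the quartiles of all genes, from weakest to strongest, the members numbered 8, 13, 14 and 10. The 2 bound members had a median signal of 158, against 174 for all 958 bound genes. The weakest candidate region, at mrpl-17, had a signal of 33.0.

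By rank in the pooled list of 30000 regions, the members' share was below that of the background in the first 1488 and above it in the next 1488. Ranks 1489 to 2976 held 7 of the 45 members (15.6%), against 717 of 7766 genes (9.23%). Ranks 2977 to 10000 held 14 members (31.1%), against 27.2% of genes, and ranks 10001 to 20000 held 14 (31.1%), against 27.7%. The last ranks, 20001 to 30000, held 8 members (17.8%), against 23.5% of genes. With the list doubled to 2976 regions, a setting chosen after seeing the data, 9 of 45 members (20.0%) would be called, against 21.6% of genes with a candidate region.

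**Figure D3:**
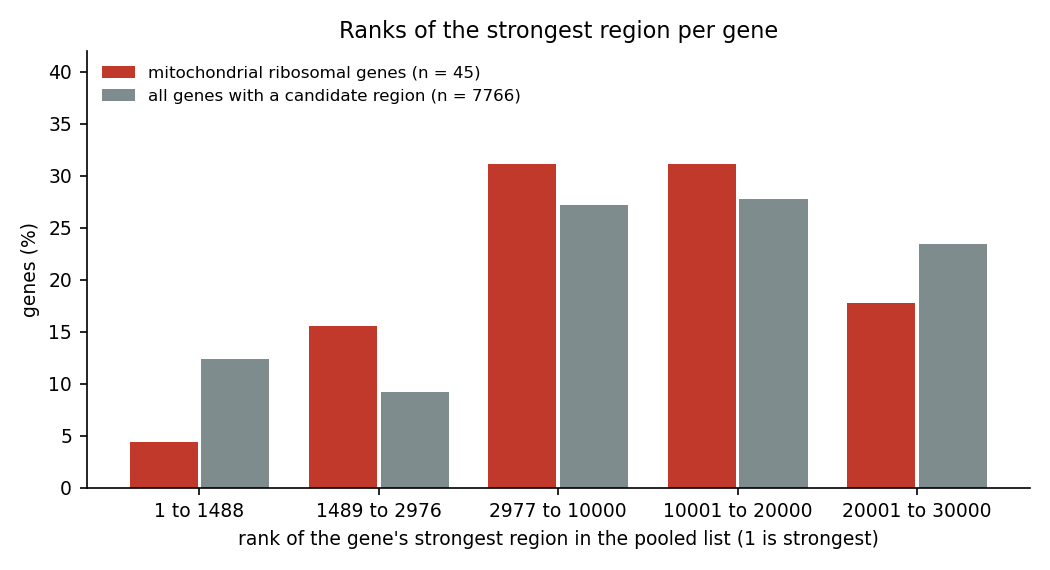
Percentage of genes whose strongest region falls in each range of ranks in the pooled list, for the 45 mitochondrial ribosomal genes (red) and all 7766 protein-coding genes with a candidate region (grey). The first range is the thresholded list, with 4.44% of members and 12.3% of genes, and the next holds 15.6% and 9.23%.

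Not every candidate region was found in both replicates. A region of replicate 1 matched the strongest region of 37 of the 45 members, with signals of 18.9 to 89.3 and a median of 30.7. In replicate 2, 32 were matched, with signals of 20.5 to 94.4 and a median of 35.8. Both replicates had a match for 25 members, and mrps-11 had none in either. The replicate 1 list held 30000 regions and the replicate 2 list 26493. No such match counts are given for all genes, so they are not read as particular to this family. Within the first 1488 ranks were 4 members in replicate 1 (mrpl-23, mrps-21, mrpl-28 and mrpl-45) and 2 in replicate 2 (mrps-21 and mrpl-23). In replicate 1 the mrps-21 summit was outside the window. Calls from replicate 1 alone were therefore 3 of 40 members (7.50%), against 12.4% of genes with a candidate region. Calls from replicate 2 alone were 2 of 34 (5.88%), against 13.3%.

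The members' summits were spread over the window. The strongest summit lay downstream of the start at 10 of 45 members (22.2%), against 18.6% of background genes. It lay 0 to 250 bp upstream at 10 (22.2%), against 29.1%, and 251 to 500 bp upstream at 10 (22.2%), against 21.1%. The remaining 15 (33.3%) had it 501 to 1000 bp upstream, against 31.2%. The median position was 385 bp upstream for members and 273 bp upstream for the background.

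For 31 of 45 members (68.9%) the gene's own start was the nearest, against 6400 of 7766 genes (82.4%). The summit was shared with the window of at least 1 other protein-coding gene at 23 members and with none at 22, with no such count given for all genes. All 45 strongest regions were distinct, so no 2 members shared one. By annotation, 20 of the 45 summits were intergenic, 18 in coding exons, 4 in introns, 2 in 3′ untranslated regions and 1 in a 5′ untranslated region. The background had 52.0% intergenic and 22.8% in coding exons, and the strongest regions of all 958 bound genes had 74.5% and 4.49%.

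**Figure D4:**
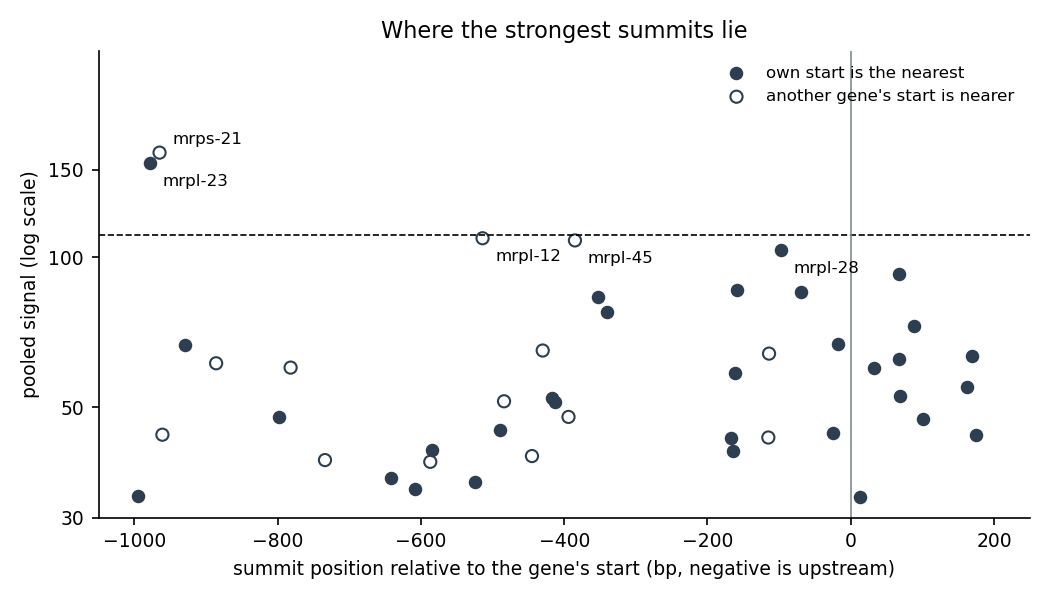
Pooled signal (log scale) of the strongest region of each of the 45 mitochondrial ribosomal genes against the position of its summit relative to the gene's start in bp, with filled circles where that start is the nearest to the summit and open circles where another gene's is nearer. The dashed line is the lowest thresholded signal, and the 2 genes above it, mrps-21 and mrpl-23, have their summits 965 and 978 bp upstream, near the edge of the window.

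The members are spread over the autosomes, with 15 genes on chromosome I, 12 on II, 22 on III, 11 on IV and 10 on V. The 12 members with more than 1 candidate region in the window include mrpl-23, mrpl-45 and mrpl-28, and no such count is given for all genes. The 25 members without a candidate region are the rest of the family. For them no summit of the pooled list lay in the window, which is not a measure of absent binding.

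Set beside other nuclear genes for mitochondria, the mitochondrial ribosomal genes had a lower bound share than 3 of 5 lists, and the other 2 lists had no bound gene. The lists are small and no difference was tested. Of 37 genes of the respiratory chain and ATP synthase with a candidate region, 12 were bound (32.4%, Wilson interval 19.6 to 48.5), with the highest signals at atp-3 (463), cox-5A (362) and cox-5B (264). Of 8 mitochondrial chaperone and protease genes, 3 were bound, among them hsp-60 and Y22D7AL.10, which share a region with a signal of 257. The 6 mitochondrial tRNA synthetase genes with a candidate region had no bound gene, and the strongest, ears-2, reached 109. The 6 import genes had none either. Of 3 translation factor and partner genes, mma-1 was bound, with a signal of 114. These lists together gave 16 bound genes of 59 (27.1%, interval 17.4 to 39.6), against 2 of 45 for the mitochondrial ribosomal genes. Distant summits occurred in these lists too. At 12 of the 59 genes (20.3%) the strongest summit lay 501 to 1000 bp upstream, against 33.3% of the 45 members. Those 12 include the bound genes mma-1, hsp-60, nduf-2.2, cox-6A and nduf-9.

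The cytosolic ribosome had the highest share of the lists with over 10 candidate genes. Of 67 genes for cytosolic ribosomal proteins with a candidate region, 26 were bound (38.8%, interval 28.1 to 50.8). The mitochondrial ribosomal genes' interval was 1.23 to 14.8. With 2976 regions it was 10.9 to 33.8. The respiratory chain and ATP synthase then had 15 of 37 (26.3 to 56.5). The other mitochondrial lists together had 24 of 59 (29.1 to 53.4), and the cytosolic ribosome 32 of 67 (36.3 to 59.5). Genes that share a region, such as hsp-60 and Y22D7AL.10, are counted separately, so these intervals do not test a difference between lists. The bound cytosolic genes had a median signal of 259, against 158 for mrps-21 and mrpl-23. These lists were chosen with earlier results of these data known, so the order of the shares is a description.

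**Figure D5:**
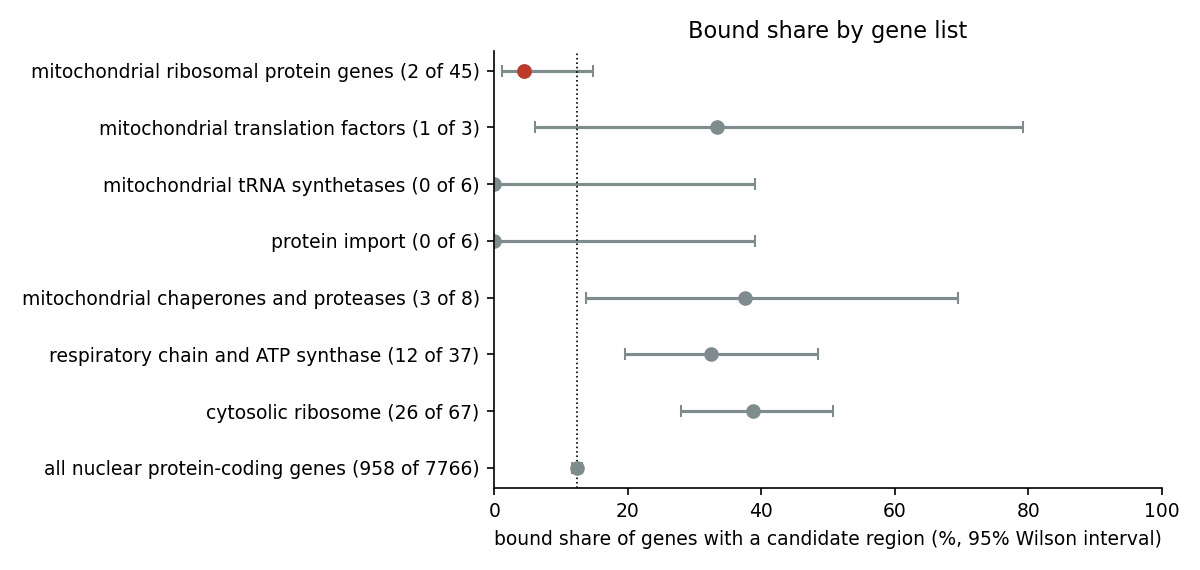
Percentage of genes with a candidate region that were bound, by gene list, with 95% Wilson intervals and the counts in brackets; the red point is the mitochondrial ribosomal genes and the dotted line the share of all nuclear protein-coding genes. The mitochondrial ribosomal genes lie at 4.44%, the respiratory chain and ATP synthase at 32.4% and the cytosolic ribosome at 38.8%.

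The letters under the members' summits were compared with those under all regions, on both strands of the 101 bp windows. ACGT, the core of many basic leucine zipper sites, was in 9 of 45 members' windows (20.0%), against 508 of 1488 thresholded windows (34.1%) and 23.2% of the 30000 pooled windows. TGACG, which begins the cyclic AMP response element, was in 11 (24.4%), against 21.8% of thresholded and 14.1% of pooled windows. Among the bound members, mrps-21 had both and mrpl-23 neither. TGACGTGG, which contains both, and CACGTG, which contains ACGT, were in no member's window, against 1.88% and 7.80% of thresholded windows and 0.623% and 3.14% of pooled windows. TGATAA, a form of the GATA factor site, was in 5 members' windows (11.1%), against 15.5% of thresholded and 9.20% of pooled windows. AGACGCAG was in 1, that of mrps-7 (2.22%), against 5.58% of thresholded and 1.61% of pooled windows. The strongest regions of all genes, 6831 in number, are the set chosen in the same way as the members' windows. ACGT was in 24.3% of them, TGACG in 15.8%, TGACGTGG in 0.776% and CACGTG in 3.65%. TGATAA was in 10.6% of them and AGACGCAG in 2.69%. Members had summits in coding exons more often, at 18 of 45 against 22.8% of genes with a candidate region. The motif counts are not adjusted for this. A match describes the letters and does not show that a factor binds them.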

How the data were processed

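The deposited files are region lists with a summit each, 1 per replicate, 1 pooled and 1 thresholded by the irreproducible discovery rate, on ce11, per the labels and deposited notes. The deposited signal comes from the authors' caller. For its formula, the aligner and the caller, the sources used here give nothing. The −log10 q-value is also the authors' and reached a ceiling of 3.18 shared by 766 pooled regions, so it was not used for ranking. At mrpl-32 it was 0.986, and it was lower at every member with a weaker signal. Read depth is unknown from these lists; the control library was not analysed here. The thresholded list was the 1488 pooled regions with the highest signal.

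Starts came from Ensembl release 115, small RNA names and sequence from RefSeq. Each gene took its strongest region in the window, and a replicate region matched when it held that summit. Named genes were the bound members, the 10 unbound members with the highest signal, and genes sharing a summit with a bound member; others, and GCAAACAC, were named after their values were seen. The members, lists and motifs were chosen with earlier results of these data known. Intervals, where given, are 95% Wilson intervals, many shares carry none, and no statistical test was run. Alternatives changed the threshold, window, assignment, starts, background and replicates. The code that assigns summits to genes was checked on simulated summits at known distances. Python 3.11.15, pandas 2.3.3, numpy 2.4.6 and scipy 1.17.1 were used.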

Additional observations from a re-analysis of the deposited data

How the results depend on the processing

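The 2 bound genes were a small count at the edge of the window. With the 744 strongest regions the count was 1 (mrps-21), with the nearest start alone 1 (mrpl-23), and with a window from 2000 bp upstream to 500 bp downstream 4 of 58 (6.90%), adding mrps-28 and mrpl-48, against 12.1% of background genes. With a window from 500 bp upstream to 100 bp downstream it was 0, a share of 0% against 13.8% of background genes, and without genes that follow a same-strand neighbour it was 0, a share of 0% against 13.6%. Leaving out replicate 1 or 2 gave 2 to 3 genes, a share of 5.88 to 7.50%, a median signal of 68.6 to 78.7 on the replicates' own scales, and 12.4 to 13.3% of background genes. With replicate 2 left out the share was 7.50% (3 of 40): mrps-21, with its summit just outside the window, lost its call, and mrpl-28 and mrpl-45 gained one. The background share was 7.19% with 744 regions, 11.0% with the nearest start alone and 4.80% over all protein-coding genes. Settings chosen after seeing the data were the list of 2976 regions, with 9 genes, a share of 20.0% against 21.6%, a median signal of 103 and 6 genes whose own start was nearest; the removal of regions near tRNA genes or tRNA pseudogenes, with 1 gene and 0 whose own start was nearest; and autosomal genes alone. The number bound with their own start nearest, 1 in the main setting, was 0 in the narrower window. TGACG was at 50% of the bound summits (1 of 2) within 50 bp, at 0% within 25 bp and at 100% (2 of 2) within 100 bp. The shares of thresholded regions in the same windows were 21.8%, 12.3% and 34.1%. No paired analysis was possible because there is only 1 group. Unknown read depth limits every absent region.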

Other observations

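An 8-base sequence stood out among the printed windows and was counted after it had been seen there. The mrpl-32 window was itself printed for the motifs it holds, so the printed windows do not show how common the sequence is. GCAAACAC, on either strand, was within 50 bp of the summit at 6 of 45 mitochondrial ribosomal genes (13.3%), against 112 of 6831 strongest regions of all genes (1.64%) and 47 of 1488 thresholded regions (3.16%). The genes were mrpl-45, where it occurred 2 times, mrpl-28, mrpl-32, mrps-18A, mrps-28 and mrps-17, and none of these was bound. Their pooled signals ran down to 40.9 at mrps-17, so the sequence was not limited to the strongest of the unbound members.

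The same letters were then counted without regard to ChIP regions, from 250 bp before to 50 bp after each gene's start. They were present at 6 of the 70 mitochondrial ribosomal genes (8.57%), namely mrpl-28, mrps-15, mrps-16, mrps-17, mrps-18A and mrps-28, against 482 of 19973 protein-coding genes (2.41%). Among them, mrps-16 had no candidate region. The genes mrpl-28, mrps-17, mrps-18A and mrps-28 were also in the count around summits. Their summits lay 97 to 165 bp upstream of the start, so the windows overlap and the counts are not independent. The cytosolic ribosome had 1 of 78 and the other mitochondrial lists together 1 of 96. Because the sequence was chosen in these windows, the counts are a description only. In the same promoters CACGTG was in 5 of the 70 (7.14%), against 5.85% of all protein-coding genes, and ACGT in 28 (40.0%), against 50.7%.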
